A study of Marmota monax with 203 samples.

Results

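The liver biopsies described here were taken at week 7 of treatment, hours after the first 100 μg dose of recombinant woodchuck interferon-α (wIFN-α) had replaced the 20 μg dose given until then. They were selected by their labels, as all biopsies of that week from animals given wIFN-α or placebo, with M1004 left out. This gave 21 of the 164 biopsies of the series, 9 from wIFN-α animals and 12 from placebo animals. The woodchucks of both groups were infected as newborns with woodchuck hepatitis virus (WHV), a relative of human hepatitis B virus, and were chronic carriers when the study began. Drug or placebo was injected under the skin on the same weekly schedule. The wIFN-α animals were the males M1002, M1003, M1007 and M1012 and the females F1013, F1014, F1018, F1020 and F1022. The placebo animals were 6 males (M1001, M1005, M1008, M1009, M1010 and M1011) and 6 females (F1015, F1016, F1017, F1019, F1021 and F1024). M1006 and F1023 of the wIFN-α group had died earlier, and M1004, which was likely clearing WHV when treatment began, is given separately. Each biopsy is 1 animal, so the spread between samples is a spread between animals.

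Type I interferon binds a receptor of the subunits IFNAR1 and IFNAR2, whose kinases JAK1 and TYK2 phosphorylate STAT proteins. Together with IRF9 these form a transcription factor that switches on interferon-stimulated genes (ISGs), among them antiviral effectors, sensors of viral nucleic acid, components of antigen presentation, chemokines and inhibitors that end the signal. In chronic hepatitis B, interferon is used as a drug, and the liver responds to it both in hepatocytes and in the other cells of the organ.

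Poly(A) RNA was sequenced, and the values are reads per gene of a woodchuck transcriptome assembly. The 27 sequencing runs of these 21 biopsies gave 25253216 to 59744958 reads on genes in wIFN-α animals (median 31355336) and 15804689 to 84805845 in placebo animals (median 27869566). Levels are given below as CPM, a gene's counts scaled to the same total of gene reads in every library, and compare animals for the same gene but not different genes. All biopsies held hepatocyte transcripts: albumin (ALB) ranged from 25125 to 52583 CPM in wIFN-α animals and from 27417 to 51220 CPM in placebo animals. Some also held transcripts of other tissues. Without scaling between libraries, 12 skin genes summed to 4922 CPM in placebo animal M1009 and to at most 38.6 CPM in any other animal. The 20 skeletal muscle genes summed to 8850 CPM in wIFN-α animal F1013 and to 12330, 6185 and 3637 CPM in placebo animals F1021, M1005 and F1016, against at most 1176 CPM in the remaining animals. Counts that change without these 5 biopsies are given beside the lists concerned. Changes within an animal were taken from its biopsy of week -3, before treatment. Of those, the biopsies of F1018 and of placebo animal F1016 held 30.7 and 93.8 CPM of ALB, against at least 58270 CPM in the other 21, and 150000 and 149800 CPM of the skeletal muscle genes, against at most 19050 CPM. They go against their label as liver, so calls that change with them are given with and without these 2 animals.

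The comparison of wIFN-α with placebo at week 7 asked what the liver transcriptome looks like after the step to the higher dose. A gene passed the test, by edgeR's quasi-likelihood method, at an adjusted p under 0.05 and a change above 1.5-fold. Of 14868 genes tested, 3205 passed (21.6%), of which 1700 were higher with wIFN-α (11.4%) and 1505 were lower (10.1%). The large changes were mostly increases: 279 genes rose and 73 fell by over 4-fold, and 63 rose and 3 fell by over 16-fold. Those 3 decreases were KRT1, FLG2 and LYPD3 and rested on the skin transcripts of M1009, without which 66 rose and 0 fell by over 16-fold. Without the 5 biopsies named above 3235 genes passed. The median log2 fold change of all genes was -0.03. Relative to week -3 of the same animal, with the animal as a replicate block, 2192 genes passed, 1439 higher and 753 lower, and 1966 of the 3205 were among them. That count was 3099 without F1018 and F1016, 1692 higher and 1407 lower, with 2598 of the 3205 among them. Before treatment, at week -3, the same test of the animals of both groups found 0 of 14963 genes (0%), with 130 at an unadjusted p below 0.05, and 0 of 15001 without F1018 and F1016, with 305. That comparison was made with edgeR only.

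The genes with the largest increases were antiviral ISGs and the chemokine CXCL10, together with genes that belong to no interferon list used here. MX2, which blocks the nuclear entry of viruses, was at 0 to 0.142 CPM in placebo animals (median 0.0412) and at 13.1 to 52.3 CPM in wIFN-α animals (median 33.6). The placebo level rests on 20 reads in all, and the log2 fold change was 9.35 ± 0.32 (SE, n = 9 and 12, adjusted p = 1.43e-16). OASL, an inhibitor of RNA virus replication of the oligoadenylate synthetase family, rose from 5.85 CPM (2.96 to 15.2) to 1271 CPM (1025 to 1467). IFIT3, which binds viral RNA together with IFIT1, rose from 10.5 CPM (7.99 to 17.2) to 1787 CPM (1593 to 2356). No placebo animal reached the lowest wIFN-α animal for any of these genes. The others among the 10 highest were RSAD2, IFIT2, CXCL10, APOL2, APOL3, ANGPTL7 and OCM2, with log2 fold changes of 6.17 to 7.22 apart from OCM2. OCM2, a calcium-binding oncomodulin, gave 1 read in the 12 placebo animals together and 1.60 to 4.71 CPM in each of the 9 wIFN-α animals. ANGPTL7, a secreted angiopoietin-like protein, rose from a median of 0.0622 CPM (36 reads in all) to 8.32 CPM (2.43 to 13.6). APOL2 and APOL3 are related in sequence, as are the IFIT and OAS genes, so that the reads of each may partly belong to its relatives.

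The genes with the lowest adjusted p were RSAD2, SLC25A28, IFIT1, PML and IFIT2. SLC25A28, a mitochondrial iron importer, was at 9.49 to 11.9 CPM in placebo animals and at 65.4 to 76.2 CPM in wIFN-α animals (log2 fold change 2.76 ± 0.05, SE, adjusted p = 2.27e-21). PML, the scaffold of nuclear bodies that restrict viruses, was at 30.7 to 41.6 CPM in placebo animals and at 343 to 421 CPM in wIFN-α animals (log2 fold change 3.42 ± 0.07, SE, adjusted p = 4.40e-21).

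The interferon pathway was described with 9 lists of 101 genes in the files, from the receptor to the effectors. Of 99 genes tested, 84 rose, 2 fell and 13 did not pass. In 80 of the 84 the lowest of the 9 wIFN-α animals exceeded the highest placebo animal. That held for 1173 of all genes tested (7.89%), called or not. The 84 were called from these same values, which favours such separation, so the 2 shares cannot be weighed against each other. The log2 fold changes of the 84 lay between 0.71 and 9.35. Relative to week -3 of the same animal, in a fit with the animal as a block, 82 of the 84 and neither of the 2 that fell passed, and without F1018 and F1016 83 of the 84 and both that fell.

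Upstream, IFNAR2 and IRF9 rose. IFNAR2 rose from 16.99 CPM (12.2 to 25.6) to 37.1 CPM (30.1 to 39.8), with a log2 fold change of 1.04 ± 0.11 (SE). IFNAR1 (log2 fold change -0.02), JAK1 (0.00) and TYK2 (-0.11) did not pass. IRF9, the DNA-binding partner of the STATs, was at 27.7 to 41.0 CPM in placebo animals and at 53.3 to 71.0 CPM in wIFN-α animals. STAT2 did not pass, at 1463 to 4422 CPM in placebo animals and 1615 to 3611 CPM in wIFN-α animals. The groups overlapped fully for STAT2 and did not overlap for IRF9 and IFNAR2.

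Of the 7 genes that dampen the signal, 5 rose. USP18, which removes ISG15 from proteins and blocks signalling at IFNAR2, went from 7.53 CPM (1.68 to 19.6) to 390 CPM (322 to 424), a log2 fold change of 5.47 ± 0.35 (SE). The suppressors SOCS1 and SOCS3, the phosphatase PTPN2 and the STAT inhibitor PIAS1 rose by 0.95 to 1.13 on the log2 scale. CISH (log2 fold change -0.29) and PTPN6 (0.17) did not pass.

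The effector lists rose nearly in full. All 6 genes of ISG15 conjugation passed, with a median log2 fold change of 4.20. ISG15, a ubiquitin-like modifier, rose from 14.9 CPM (5.10 to 43.6) to 943 CPM (813 to 1075), and its ligase HERC5 from 35.0 CPM (25.7 to 48.9) to 680 CPM (628 to 835). All 7 genes of the OAS, RNase L, PKR and ADAR list passed (median 4.41), and 8 of 9 IFIT and IFITM genes (median 4.96). Within that list the IFIT genes rose by 4.96 to 7.32 on the log2 scale, and IFITM1, IFITM2 and IFITM3, membrane proteins that hinder virus entry, by 1.49 to 1.71. RSAD2, the radical SAM enzyme viperin, rose from 20.1 CPM (16.5 to 26.7) to 3208 CPM (2194 to 3714). MX1, a GTPase that traps viral nucleoproteins, rose from 639 CPM (504 to 906) to 7885 CPM (6854 to 8442). The placebo animals spread widely in ISG15 and little in MX1, and the wIFN-α animals lay close together in both.

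Of 33 other antiviral effectors tested, 30 rose and 1 fell, with a median log2 fold change of 2.19. BST2, which tethers virions to the cell surface, rose by 3.24 ± 0.29 (SE) on the log2 scale, and ISG20, an exonuclease that degrades RNA of hepatitis B virus, by 3.23 ± 0.17 (SE). Of the APOBEC3 cytidine deaminases, APOBEC3F rose from 0.835 CPM (0.424 to 1.42) to 1.98 CPM (0.884 to 2.34) and APOBEC3D fell from 0.622 CPM (0.267 to 0.838) to 0.349 CPM (0.197 to 0.375). The groups overlapped for both, both were low, and neither passed relative to week -3 of the same animal (adjusted p = 0.173 and 0.114), where both passed without F1018 and F1016 (adjusted p = 0.00621 and 0.0426).

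**Figure D1:**
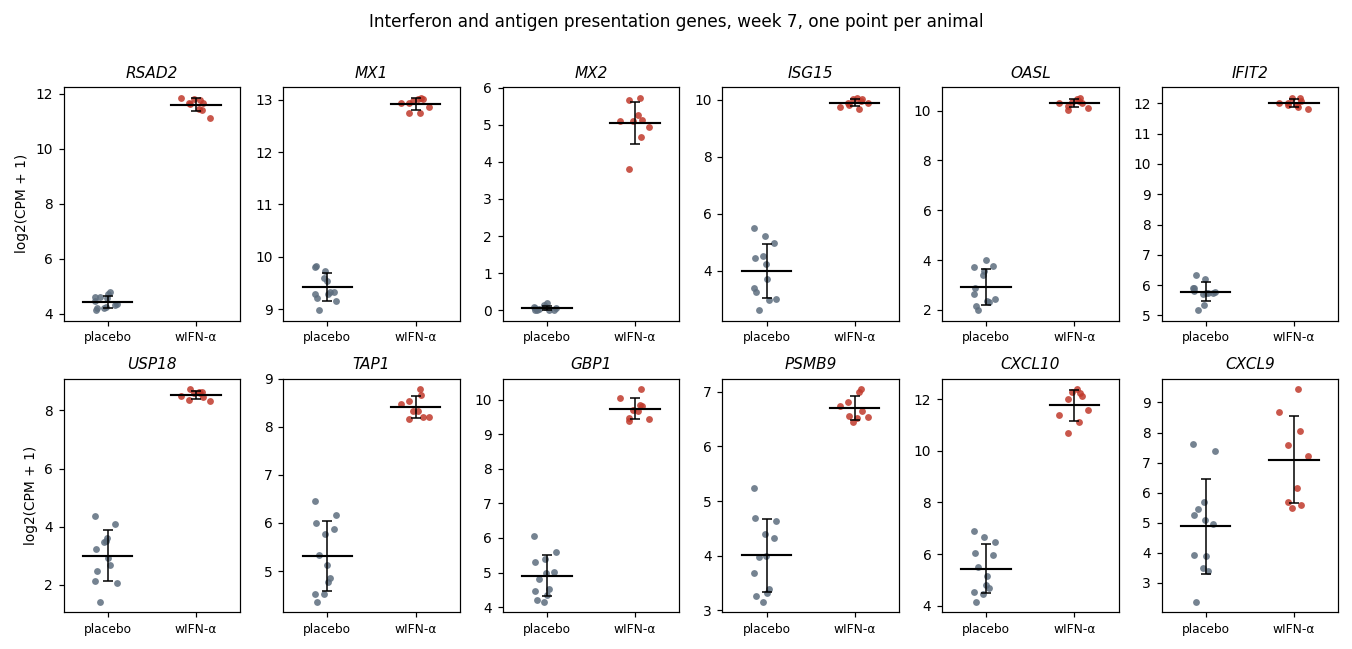
Level of 12 interferon, antigen presentation and chemokine genes at week 7 as log2(CPM + 1), each point 1 animal (12 placebo in grey, 9 wIFN-α in red), with the mean as a line and the SD as an error bar. The groups do not overlap in any panel except CXCL9, and the scale of the axis differs between panels.

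Of 16 sensors of RNA and DNA tested, 14 rose. RIG-I (DDX58) rose by 3.23 ± 0.13, MDA5 (IFIH1) by 4.22 ± 0.15, the endosomal RNA sensor TLR3 by 5.09 ± 0.29 and the Z-nucleic acid sensor ZBP1 by 5.38 ± 0.26 (log2, SE). The DNA sensor cGAS (MB21D1) rose from 0.242 CPM (0.0889 to 0.541) to 4.39 CPM (3.27 to 4.92). TLR8 passed with a wide spread, and not with sequencing lane as a covariate or in the change from week -3 without F1018 and F1016 (adjusted p = 0.0602), at 1.73 to 4.13 CPM in placebo animals and at 3.31 to 43.8 CPM in wIFN-α animals.

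Among 8 interferon regulatory factors 6 rose and 1 fell. The increases were led by IRF7, the amplifier of the type I interferon response, from 27.9 CPM (13.6 to 74.8) to 563 CPM (490 to 656). Of 6 interferon-responsive PARP genes and their partner DTX3L, 5 rose, by 1.999 to 3.87 on the log2 scale.

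Antigen presentation on MHC class I rose, and no gene of the class II list passed. Of 20 genes of class I presentation and the immunoproteasome 17 rose, with a median log2 fold change of 1.49. TAP1, a subunit of the peptide transporter, rose from 36.5 CPM (19.5 to 86.4) to 321 CPM (285 to 439), and PSMB9, a catalytic subunit of the immunoproteasome, from 14.8 CPM (7.90 to 36.9) to 99.9 CPM (86.8 to 131). The groups did not overlap for TAP1 and PSMB9. The 6 HLA genes rose by 1.44 to 1.73 on the log2 scale, and since their names come from similarity to human genes, reads of related woodchuck genes may be shared between them. Of 14 subunits of the constitutive proteasome PSMA1, PSMA2 and PSMA3 rose (0.98, 1.32 and 0.68), where 11.4% of all genes tested rose.

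Of 12 MHC class II genes tested 0 passed by edgeR, DESeq2 or limma, and 2 had an unadjusted p below 0.05 by edgeR. The median log2 fold change was 0.00. The transactivator CIITA was at 4.29 to 8.12 CPM in placebo animals and 4.42 to 11.01 CPM in wIFN-α animals. HLA-DRA was at 38.4 to 180 and at 36.8 to 201 CPM. Both groups covered the same range for these genes.

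All 7 guanylate-binding proteins, GTPases that attack pathogen vacuoles and are induced by IFN-α and IFN-γ, rose, with a median of 4.20 on the log2 scale. GBP1 rose from 28.9 CPM (16.8 to 65.3) to 837 CPM (666 to 1262). GBP5 rose least, by 1.44 ± 0.16 (log2, SE). The GBP genes are close relatives and may share reads.

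Of 12 chemokines tested 8 rose. CXCL10, which draws CXCR3-bearing T and NK cells, rose from 39.3 CPM (16.7 to 117) to 4080 CPM (1649 to 5369). CXCL9, a ligand of the same receptor, rose by 2.07 ± 0.64 (log2, SE, adjusted p = 0.0112), and only 3 of 9 wIFN-α animals exceeded the highest placebo animal. Its levels were 4.18 to 196 CPM in placebo animals (median 31.6) and 43.7 to 693 CPM in wIFN-α animals (median 148). With sequencing lane as a covariate CXCL9 did not pass. The monocyte chemokines CCL2, CCL7 and CCL8 rose by 2.23 to 2.67.

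Of 14 cytokine genes and their antagonists 8 rose and 1 fell. IL15, which sustains NK and memory T cells, and its receptor chain IL15RA rose by 1.38 ± 0.16 and 1.44 ± 0.22 (log2, SE). IL18 fell by 0.99 ± 0.19 while its secreted antagonist IL18BP rose by 1.997 ± 0.154 (log2, SE). TNF rose from 0.505 CPM (0.267 to 1.17) to 2.50 CPM (1.37 to 6.48). IFNG was at most 0.360 CPM in any animal and was too low to be tested.

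Of 9 checkpoint receptors and ligands 5 rose. The PD-1 ligand CD274 rose from 2.36 CPM (1.497 to 2.88) to 10.2 CPM (8.36 to 18.1), LGALS9 from 17.03 CPM (10.4 to 22.5) to 116 CPM (105 to 135) and the tryptophan-degrading enzyme IDO1 from 2.06 CPM (0.698 to 6.36) to 27.3 CPM (16.4 to 39.0). The receptors moved less. LAG3 rose by 0.64 ± 0.23 (log2, SE, adjusted p = 0.0257) and did not pass without the 5 biopsies with muscle or skin transcripts, with lane as a covariate or relative to week -3 of the same animal (adjusted p = 0.364, and 0.091 without F1018 and F1016). PDCD1 was at 0.800 to 9.97 CPM in placebo animals and at 1.98 to 12.8 CPM in wIFN-α animals, and did not pass (log2 fold change 0.30).

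Death receptors, their ligands and effectors rose in 15 of 20 genes and fell in 1. TRAIL (TNFSF10) rose from 76.0 CPM (58.2 to 106) to 440 CPM (344 to 473), and the receptor FAS by 1.77 ± 0.09 (log2, SE). MLKL, the executioner of necroptosis, rose by 3.74 ± 0.16, the inflammatory caspase CASP1 by 2.73 ± 0.13 and BAK1, which permeabilizes mitochondria, by 2.31 ± 0.10 (log2, SE). BAX, which acts with BAK1, fell from 70.6 CPM (63.5 to 93.7) to 43.5 CPM (39.9 to 49.6), with all wIFN-α animals below all placebo animals. The decrease of BAX relative to week -3 of the same animal did not pass (adjusted p = 0.173) and passed without F1018 and F1016 (adjusted p = 0.0222). Without the 5 biopsies 14 of the 15 passed, as BID did not reach 1.5-fold.

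**Figure D2:**
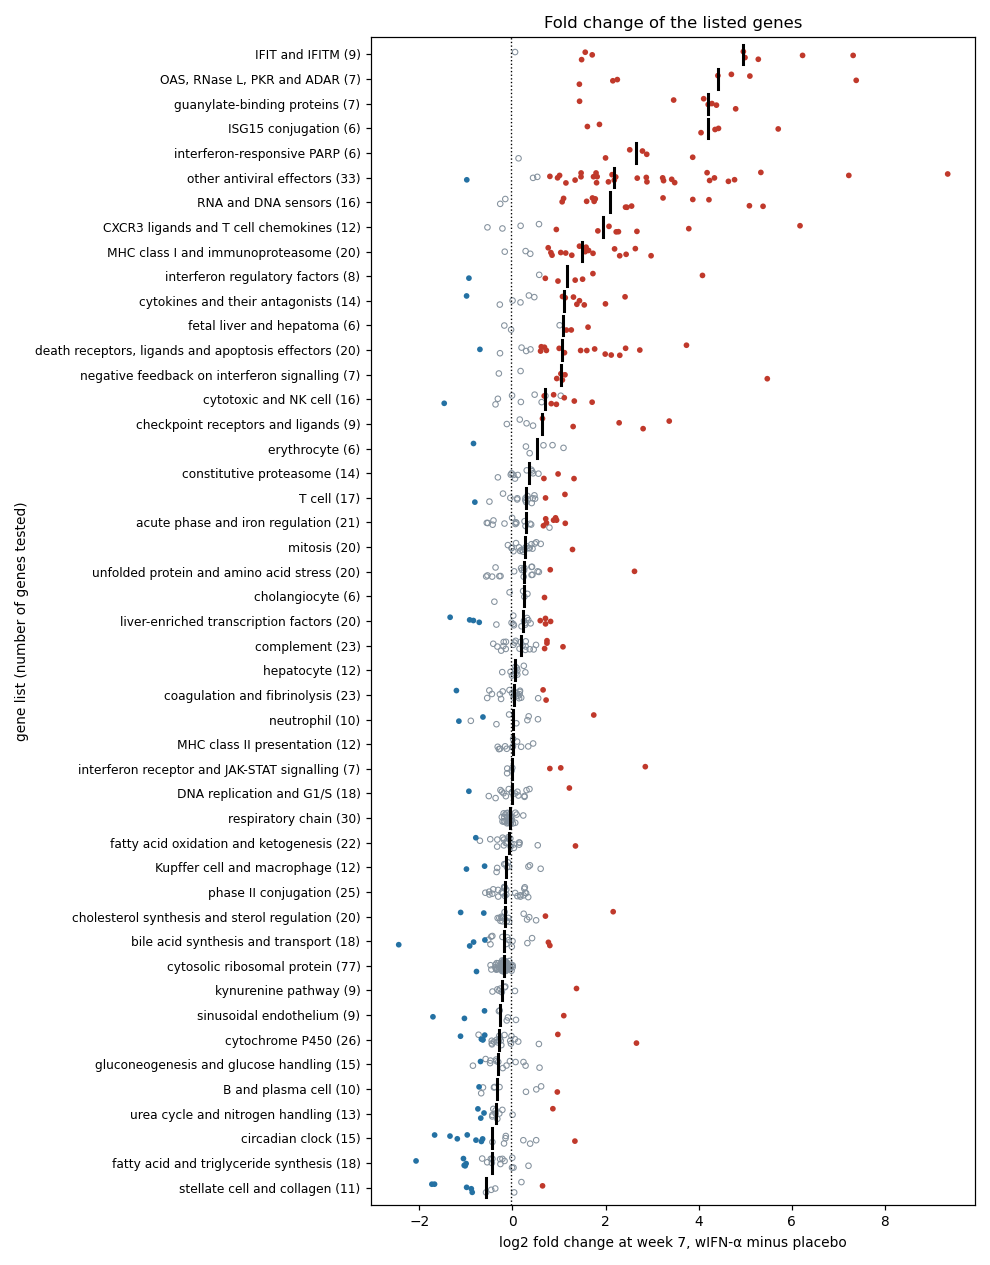
Log2 fold change at week 7 of every tested gene of 47 lists, ordered by the median of the list (black bar), with the number of genes tested in brackets. Filled points passed the test (red higher, blue lower), open points did not, and the dotted line is the median of all genes (-0.03).

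Markers of T cells passed in 3 of 17 tested genes, in both directions, where 21.6% of all genes tested passed. In such bulk tissue fewer cells of a type and less RNA per cell cannot be told apart. CD3E rose from 33.5 CPM (22.8 to 42.4) to 70.7 CPM (61.7 to 94.6), and the Th1 and effector regulator TBX21 by 0.71 ± 0.25 (log2, SE, adjusted p = 0.0261), while CD4 fell by 0.81 ± 0.23 (log2, SE). CD3D (log2 fold change 0.28), CD247 (0.29) and CD8A (-0.20) did not pass, and CD3G did not reach 1.5-fold (0.44, adjusted p = 0.000288). The subunits of the CD3 complex were thus called for CD3E alone. TBX21 and CD4 did not pass with lane as a covariate or relative to week -3 of the same animal (adjusted p = 0.565 and 0.290), where CD4 passed without F1018 and F1016 (adjusted p = 0.00386) and TBX21 did not (0.148).

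Of 16 markers of cytotoxic and NK cells 7 rose and 1 fell. GZMA, a granzyme, rose from 0.946 CPM (0.223 to 2.19) to 2.65 CPM (1.43 to 7.12), perforin (PRF1) from 0.379 CPM (0.166 to 0.547) to 0.803 CPM (0.293 to 1.16), and the NK receptor subunit KLRD1 from 13.3 CPM (11.6 to 16.1) to 22.8 CPM (21.5 to 28.8). GZMB (log2 fold change 1.04, adjusted p = 0.0733), NKG7 (0.48) and GZMK (-0.31) did not pass. NCAM1 fell by 1.47 ± 0.59 (log2, SE, adjusted p = 0.0445) and did not pass without the 5 biopsies. Of the 7, 3 passed relative to week -3 of the same animal, with and without F1018 and F1016, and NCAM1 passed in neither (adjusted p = 0.242 and 0.102).

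The share of markers of other cells that passed differed between lists, where 21.6% of all genes tested passed. It was 4 of 9 for sinusoidal endothelium, 6 of 11 for stellate cells and collagen and 3 of 10 for neutrophils. For erythrocytes and for cholangiocytes it was 1 of 6. Of 10 B and plasma cell markers CD22 rose and POU2AF1 fell, and of 12 Kupffer cell and macrophage markers CD163 and VSIG4 fell. Without the 5 biopsies POU2AF1, CD163 and VSIG4 did not pass. In the change from week -3 CD22, POU2AF1, VSIG4 and the endothelial gene LYVE1 did not pass (adjusted p = 0.0791 to 0.184), and all but VSIG4 passed without F1018 and F1016. Of 9 genes of sinusoidal endothelium 3 fell and LYVE1 rose. Of the 3 decreases 2 passed in the change from week -3, and all 3 without F1018 and F1016. KDR, the main receptor for VEGF-A, fell from 33.9 CPM (20.2 to 50.7) to 9.33 CPM (4.40 to 21.6), with 8 of 9 wIFN-α animals below every placebo animal (log2 fold change -1.71 ± 0.25, SE, adjusted p = 5.57e-06). Of 11 genes of stellate cells and collagen TIMP1, an inhibitor of matrix proteases, rose and 5 fell, led by COL1A1, from 128 CPM (21.1 to 421) to 26.6 CPM (19.2 to 117). The placebo animals varied widely in COL1A1, and 3 of 9 wIFN-α animals lay below all of them. Without the 5 biopsies COL1A1 did not pass (adjusted p = 0.0572). None of the 5 decreases passed relative to week -3 of the same animal (adjusted p = 0.0872 to 0.245), and 4 passed without F1018 and F1016, all but DCN (adjusted p = 0.0588). The increase of TIMP1 passed there only without F1018 and F1016 (adjusted p = 0.409 with and 0.0336 without these animals).

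Among the 10 largest decreases of all genes, KRT1, FLG2, LYPD3, SFN and KRT15 are genes of stratified epithelium whose placebo level came from M1009. KRT1 was at 1987 CPM in M1009, against a placebo median of 0.369 CPM and 0.320 to 0.978 CPM in wIFN-α animals. Without M1009 its log2 fold change was 0.29 in place of -8.48, and of the 5 only LYPD3 passed (-1.03 in place of -4.25). The other decreases were CXCL14, THBS4, ADAMTS14, LOC283104 and LOC100128343. CXCL14, a chemokine, was at 0 to 13.9 CPM in placebo animals and at 0 in 5 of 9 wIFN-α animals, and the groups overlapped. CXCL14 and THBS4, a matrix thrombospondin, were too low to be tested without the 5 biopsies. They and the 5 epithelial genes did not pass in the change from week -3, with or without F1018 and F1016. ADAMTS14, an enzyme that processes procollagen, fell from 2.68 CPM (0.734 to 5.25) to 0.187 CPM (0.0517 to 0.698) with no overlap between the groups. LOC283104 and LOC100128343, loci without an established function, also fell in all 9 animals below every placebo animal, which held for 2.61% of all genes tested.

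Of 12 hepatocyte markers 0 passed by edgeR, DESeq2 or limma, with 1 at an unadjusted p below 0.05 by edgeR and a median log2 fold change of 0.06. The respiratory chain gave 0 of 30 genes by each of these tools (6 at an unadjusted p below 0.05, median -0.06). Of 25 phase II conjugation genes 0 passed by edgeR and limma and 1 by DESeq2 (10 at an unadjusted p below 0.05, median -0.16). Against this background, single genes of bile acid, lipid and nitrogen metabolism and of transcription control passed. By list, the calls ranged from 0 of 30 genes of the respiratory chain and 1 of 77 ribosomal protein genes to 3 of 6 genes of fetal liver and hepatoma. Over all genes tested 21.6% passed, 11.4% higher and 10.1% lower. Over all lists of liver functions 28 genes rose and 27 fell. Of these, 8 of the 28 and 9 of the 27 passed relative to week -3 of the same animal, and 22 of the 28 and 22 of the 27 without F1018 and F1016. Without the 5 biopsies of week 7, 28 and 24 passed.

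Bile acid genes fell in 4 of 18 and rose in 2, where 10.1% of all genes tested fell and 11.4% rose. CYP7A1, the rate-limiting enzyme of bile acid synthesis, fell from 22.1 CPM (5.22 to 57.5) to 5.03 CPM (2.56 to 7.30), a log2 fold change of -2.44 ± 0.34 (SE, adjusted p = 2.85e-06). Its decrease passed under every alternative tried. CYP8B1, which sets the ratio of the primary bile acids, fell from 227 CPM (201 to 523) to 174 CPM (98.0 to 222), and BAAT, which conjugates bile acids, from 101 CPM (72.2 to 127) to 56.8 CPM (37.2 to 72.2). SLC10A1, the bile acid uptake transporter NTCP and in humans the entry receptor of hepatitis B virus, fell from 853 CPM (681 to 1006) to 561 CPM (461 to 667), with no overlap between the groups (log2 fold change -0.59 ± 0.09, SE). The change of SLC10A1 lay close to 1.5-fold and did not pass by limma or with lane as a covariate. The exporters ABCB4 and ABCC3 rose by 0.80 and 0.77. Of these 6 genes only CYP7A1 passed relative to week -3 of the same animal (adjusted p = 0.168 to 0.593 for the other 5), and all 6 passed without F1018 and F1016.

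**Figure D3:**
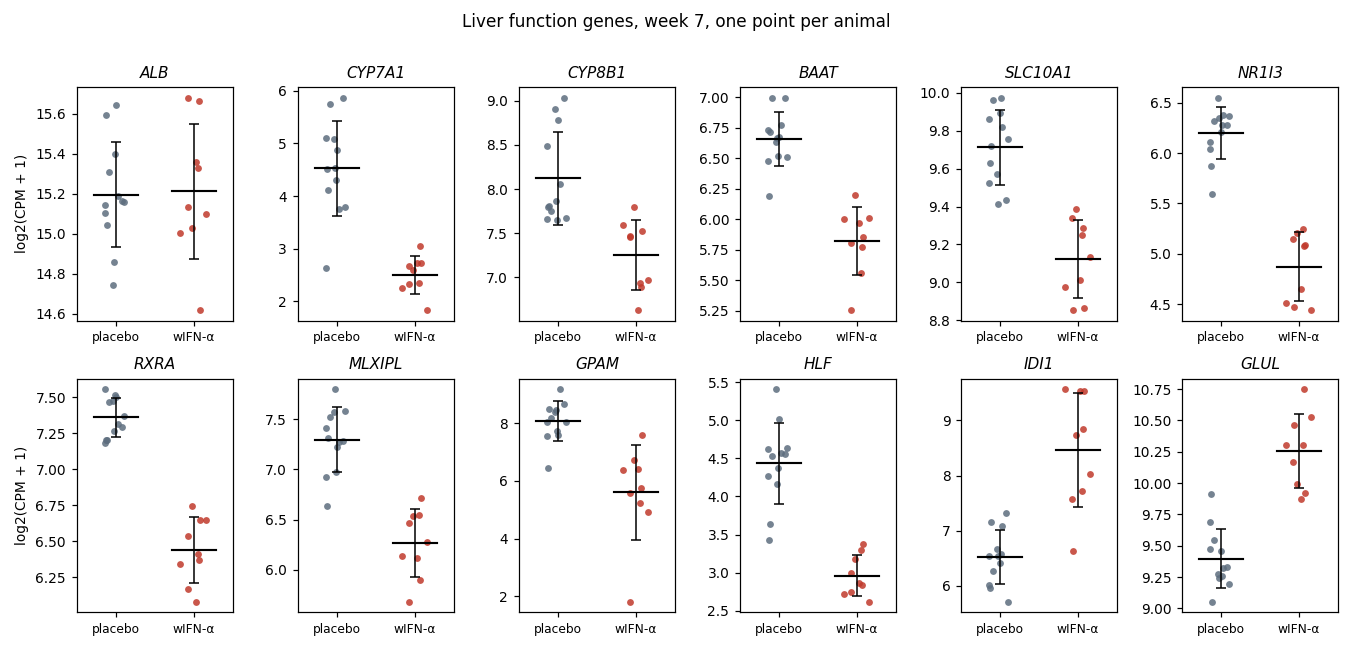
Level of 12 liver genes at week 7 as log2(CPM + 1), each point 1 animal (12 placebo in grey, 9 wIFN-α in red), with the mean as a line and the SD as an error bar. ALB covers the same range in both groups, NR1I3, RXRA, SLC10A1 and HLF do not overlap, and M1007 is the lowest point for GPAM.

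Of 20 liver-enriched transcription factors 4 rose and 4 fell. NR1I3 (CAR), the nuclear receptor for xenobiotics, fell from 76.7 CPM (47.5 to 92.8) to 32.7 CPM (20.7 to 36.9), and its partner RXRA from 161 CPM (144 to 187) to 84.1 CPM (66.6 to 106). PPARA, the fatty acid sensor, and CEBPA fell by 0.84 and 0.71 on the log2 scale. HNF4G, FOXA3, CEBPD and the bile acid receptor NR1H4 (FXR) rose by 0.60 to 0.82. NR1I3 and RXRA did not overlap between groups and passed relative to week -3 of the same animal, where PPARA (adjusted p = 0.0593), CEBPA (0.360), FOXA3 (0.204) and NR1H4 (0.329) did not. Without F1018 and F1016 all 8 passed. Of 26 cytochrome P450 genes 5 fell and 2 rose, where 10.1% of all genes tested fell and 11.4% rose. Among the decreases was CYP2E1, from 5321 CPM (2671 to 7958) to 3592 CPM (2098 to 6158). CYP2E1 did not reach 1.5-fold without the 5 biopsies, which left 4 decreases. Relative to week -3 of the same animal 1 of the 5 decreases passed, and 2 without F1018 and F1016, in neither case CYP2E1 (adjusted p = 0.825 and 0.142). CYP2R1, a vitamin D hydroxylase, rose from 3.50 CPM (2.11 to 5.92) to 24.3 CPM (16.2 to 35.0), without overlap. CYP3A4 did not reach 1.5-fold (log2 fold change -0.44, adjusted p = 0.00381), and CYP1A2 (0.05) did not pass.

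Fatty acid and triglyceride synthesis fell in 5 of 18 genes, where 10.1% of all genes tested fell. The median log2 fold change of the list was -0.44. GPAM, the first enzyme of triglyceride synthesis, was at 85.9 to 583 CPM in placebo animals (median 279) and at 2.48 to 194 CPM in wIFN-α animals (median 52.6). MLXIPL (ChREBP), the glucose-responsive factor that drives these genes, fell from 156 CPM (98.7 to 222) to 76.5 CPM (50.3 to 104), and ACACA, DGAT2 and LPIN1 fell by 1.00 to 1.05 on the log2 scale. FASN (log2 fold change -0.65, adjusted p = 0.204), SREBF1 (-0.54) and SCD (-0.27) did not pass. LPIN1 did not pass without the 5 biopsies (adjusted p = 0.0521). In the change from week -3 GPAM and LPIN1 passed, while MLXIPL (adjusted p = 0.255), ACACA (0.0876) and DGAT2 (0.220) did not, and all 5 passed without F1018 and F1016. M1007 was the lowest animal for GPAM, ACACA and FASN, with FASN at 134 CPM where the rest of the wIFN-α group had 1277 to 5398 CPM.

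In cholesterol synthesis 2 of 20 genes rose and 2 fell, where 21.6% of all genes tested passed. IDI1, which isomerizes the isoprenoid building block, rose from 92.3 CPM (51.5 to 160) to 427 CPM (98.2 to 755), while FDFT1, the squalene synthase, fell from 112 CPM (74.8 to 172) to 60.8 CPM (26.1 to 76.2). Of the called genes of cholesterol synthesis only IDI1 and FDFT1 passed in the change from week -3, with and without F1018 and F1016. In nitrogen handling GLUL, the glutamine synthetase, rose from 643 CPM (530 to 965) to 1261 CPM (937 to 1720), and GOT1, GPT and SLC25A13 fell by 0.61 to 0.74 on the log2 scale. Of 15 genes of glucose handling only the glycogen synthase GYS2 fell, by 0.70 ± 0.11 (log2, SE). SLC25A13 and GYS2 did not pass in the change from week -3 (adjusted p = 0.639 and 0.741) and passed without F1018 and F1016 (adjusted p = 1.99e-05 and 0.0156).

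Of 21 acute phase genes 7 rose and of 23 complement genes 4, where 11.4% of all genes tested rose. C-reactive protein (CRP) rose from 441 CPM (312 to 600) to 791 CPM (620 to 1315), and complement factor B (CFB) from 1850 CPM (1254 to 2051) to 3653 CPM (3047 to 4269). The groups did not overlap for either gene. In the change from week -3, 1 of the 7 acute phase genes passed (LBP) and 0 of the 4 complement genes, with CRP and CFB at an adjusted p of 0.193 and 0.352. Without F1018 and F1016 4 of the 7 and all 4 complement genes passed, with CRP at an adjusted p of 0.000896 and CFB at 4.41e-06. Hepcidin (HAMP) did not pass, at 1.27 to 75.8 CPM in placebo animals and 18.9 to 130 CPM in wIFN-α animals.

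The circadian clock list fell in 7 of 15 genes and rose in 1. HLF, DBP and TEF are the PAR-domain factors through which the clock drives liver metabolism. HLF fell from 22.4 CPM (9.81 to 41.5) to 6.28 CPM (5.13 to 9.37), without overlap, and DBP and TEF fell by 1.34 and 1.19 on the log2 scale. NFIL3, which opposes these factors at the same DNA element, rose from 26.8 CPM (14.1 to 53.0) to 71.2 CPM (42.9 to 105). CRY1, CRY2, PER2 and PER3 fell by 0.64 to 0.97, while ARNTL (log2 fold change -0.18) and CLOCK (-0.14) did not pass. Without the 5 biopsies CRY1 did not pass (adjusted p = 0.0509), and in the change from week -3 CRY1 and PER2 did not, with or without F1018 and F1016 (adjusted p = 0.171 to 0.208). With lane as a covariate 3 of the 7 decreases passed, and the hour of biopsy is not in the labels. Of 20 genes of protein folding and amino acid stress ATF3, a stress-induced transcription factor, rose by 2.62 ± 0.21 and the sensor ERN1 by 0.81 ± 0.13 (log2, SE). Over all genes tested 11.4% rose. Of 77 ribosomal protein genes RPL36A fell and of 20 mitosis genes only CDC20 rose, and neither passed without the 5 biopsies (adjusted p = 0.103 and 0.0684). Neither passed in the change from week -3 (adjusted p = 0.185 and 0.107). There CDC20 passed without F1018 and F1016 (adjusted p = 0.0274) and RPL36A did not (0.0896).

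The levels reached with wIFN-α were similar from animal to animal. Over the 61 interferon genes that rose and had a placebo mean of at least 10 CPM, the median SD of log2 CPM was 0.161 among wIFN-α animals and 0.257 among placebo animals, and 75.4% of the genes had the smaller SD with wIFN-α. For 20 antigen presentation genes these values were 0.207, 0.483 and 85%. Over all 8339 genes at that level they were 0.202, 0.196 and 45.1%, and over the 828 genes that rose, 0.222, 0.229 and 50.9%. These are descriptions and were not tested.

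The called genes with the widest spread among wIFN-α animals were GBGT1, GPAM, CXCL9, EPDR1 and ACACA. GBGT1 encodes the enzyme that makes the Forssman glycolipid, a cell surface sugar antigen. It rose by 5.52 ± 0.71 (log2, SE, adjusted p = 1.19e-06), but the animals fell into 6 with high and 3 with low values. F1013, M1012, M1007, M1003, F1022 and F1014 had 13.8, 15.1, 16.5, 17.8, 26.0 and 28.2 CPM. F1020, F1018 and M1002 had 0.211, 0.552 and 0.784 CPM, where the placebo animals reached at most 0.735 CPM. For ISG15 these 3 animals were at 939, 1030 and 813 CPM, of which the last is the lowest of the 9 and the others lie within the range of the group. The same 3 animals had the lowest levels at weeks 0, 7 and 11, on the scale of a joint fit of 4 weeks. At week 11 they had 0.601, 0.584 and 1.62 CPM, and the other 5 animals had 13.4 to 43.0 CPM. EPDR1 lay between 1.16 and 53.2 CPM in wIFN-α animals, with F1014 and M1003 high, and between 2.04 and 14.4 CPM in placebo animals. EPDR1 did not pass without the 5 biopsies (adjusted p = 0.0590), with lane as a covariate or in the change from week -3 with or without F1018 and F1016 (adjusted p = 0.161 and 0.140).

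**Figure D4:**
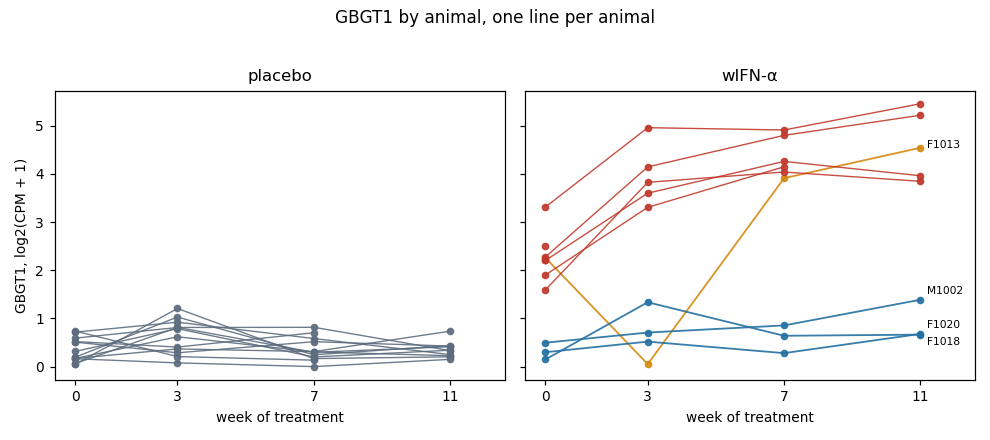
GBGT1 as log2(CPM + 1) at weeks 0, 3, 7 and 11, with 1 line per animal, placebo on the left and wIFN-α on the right. F1018, F1020 and M1002 (blue) stay near the placebo animals at all weeks while the other animals (red) rise, and F1013 (orange) is low at week 3 only, in a biopsy whose RSAD2 and ISG15 were also at placebo level.

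Comparison with the other weeks addressed the effect of dose, which cannot be told apart from the length of treatment, since every treated animal received the lower dose first. Biopsies of weeks 0 (11 wIFN-α and 12 placebo animals) and 3 (9 and 12) followed doses of 20 μg, and those of weeks 7 and 11 (8 and 10) doses of 100 μg. The biopsies come from the same animals, and the effects are wIFN-α minus placebo at each week in 1 joint fit. The 84 interferon genes that rose at week 7 were chosen by that rise. This choice favours week 7 in comparisons with other weeks, here and below. For these 84 genes the median log2 effect was 2.17 at week 0, 2.24 at week 3, 2.43 at week 7 and 2.43 at week 11. For MX1 the effects at these weeks were 3.58 ± 0.21, 3.82 ± 0.21, 3.48 ± 0.21 and 3.54 ± 0.23 (log2, SE). For RSAD2 they were 5.88, 6.27, 7.22 and 7.40, and for ISG15 5.11, 5.22, 5.70 and 5.62. Between weeks 0 and 7 the mean of MX1 rose in both groups. It went from 412 to 714 CPM in placebo animals and from 4935 to 7959 CPM in wIFN-α animals.

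Larger effects at week 7 than at week 0 passed in 62 genes and smaller ones in 24, in all 86 of 15826 genes (0.543%). Among the 84 interferon genes the effect was larger for HERC5 by 1.29 (log2, adjusted p = 0.00812), for RSAD2 by 1.34 (adjusted p = 0.0251), for SAMHD1, which depletes nucleotides, by 0.64 (adjusted p = 0.0472) and for ZBP1 by 1.99 (adjusted p = 0.00550). In this fit 589 genes passed with the animal as a replicate block and 44 without M1003. Without the biopsies rich in muscle or skin transcripts, which leaves 8 and 7 animals at week 0, 3 genes passed and none of these 4 (adjusted p = 0.0823 to 0.403). The sizes of the difference were then 1.41, 1.13, 0.60 and 2.10. For HERC5 the placebo mean was 63.8 CPM at week 0 and 35.2 CPM at week 7, and the wIFN-α mean 530 and 714 CPM. ZBP1 rose from 5.40 CPM (1.94 to 7.08) to 182 CPM (126 to 261) at week 7, and at week 0 the wIFN-α animals had 42.8 to 101 CPM in the joint fit, all below the lowest value of week 7, 129 CPM.

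The widest differences from week 0 among other genes were those of LGALS13, IHH, SLC1A4, RASGRP3, LOC283104, LOC100506385, DNAJB7, TRIB3 and LOC100505636. LGALS13, a galectin, was at 0 to 0.401 CPM in placebo animals and at 1.16 to 9.88 CPM in wIFN-α animals, and its effect was larger by 2.49 than at week 0. RASGRP3, an activator of Ras in lymphocytes and endothelium, was at 3.51 to 7.32 CPM in placebo animals and at 11.4 to 84.9 CPM in wIFN-α animals, and its effect was larger by 1.60. TRIB3, a pseudokinase of the amino acid stress response, had a log2 effect of 0.83 at week 0 and -0.29 at week 7.

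Between weeks 7 and 3, 180 of 15826 genes differed (1.14%), 83 with a larger and 97 with a smaller effect at week 7. Of the 97, 44 lay below -8 on the log2 scale, led by the keratins KRT77, KRT2 and KRT5 with KRTDAP and DMKN. These are skin genes, and the skin genes summed to 9423 CPM in the week 3 biopsy of M1012 and to 4922 CPM in the week 7 biopsy of M1009. Without M1012, 25 genes differed. At week 3, 8 of 12 placebo biopsies held muscle or skin transcripts over the limits used, against 2 of 9 wIFN-α biopsies, and the week 3 biopsy of F1013 had 20.6 CPM of RSAD2 and 2.69 CPM of ISG15, as in placebo animals. The labels do not tell whether a missed dose, a late biopsy or an exchanged sample lies behind this. Without F1013, 111 genes differed, and with the animal as a replicate block 716. Without all biopsies rich in muscle or skin transcripts, which leaves 7 and 4 animals at week 3, 1 gene differed (PGM3). The part of these biopsies in the differences between weeks was not otherwise tested.

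Of the 84 interferon genes only HERC5 had a larger effect at week 7 than at week 3, by 1.61 (log2, adjusted p = 0.00194). The HERC5 mean fell from 61.0 to 35.2 CPM in placebo animals and rose from 405 to 714 CPM in wIFN-α animals. The HERC5 difference thus holds a change in both groups. That difference was 1.45 without F1013 (adjusted p = 0.000101) and 1.501 without the biopsies rich in muscle or skin transcripts (adjusted p = 0.192). The other widest increases, LOC100506027, LGALS13, ADAMTS17, GRB10 and ATF3, lay between 1.91 and 3.08, and none of them passed without those biopsies. LOC100506027 was at 5.87 to 20.6 CPM in placebo animals at week 7 and at 342 to 458 CPM in wIFN-α animals. Its log2 effect was 4.70 at week 0, 2.01 at week 3, 5.09 at week 7 and 4.35 at week 11, with F1013 at 7.31 CPM at week 3 and placebo animal M1005 at 232 CPM.

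**Figure D5:**
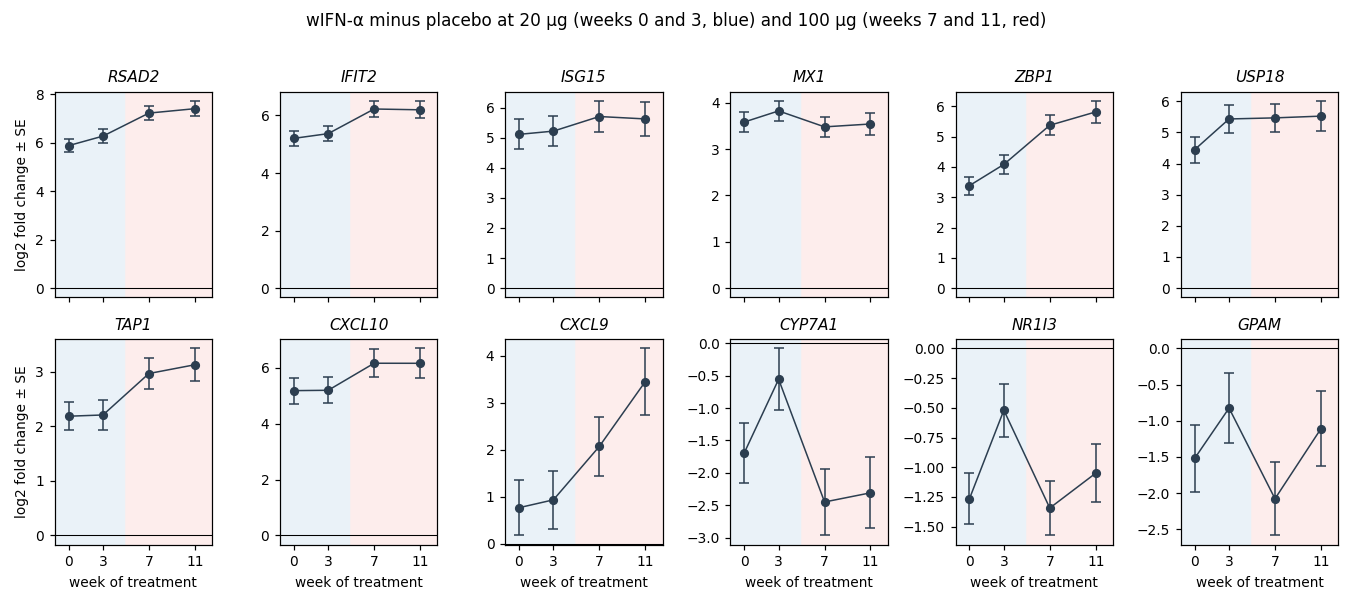
Log2 fold change of wIFN-α over placebo ± SE in the joint fit at weeks 0 and 3 (20 μg, blue ground) and weeks 7 and 11 (100 μg, red ground) for 12 genes. The fold changes of MX1 and ISG15 vary less than those of RSAD2 and ZBP1, which lie higher at weeks 7 and 11, and CYP7A1, NR1I3 and GPAM lie nearest 0 at week 3.

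The log2 effect on CYP7A1 was -1.69 at week 0, -0.56 at week 3, -2.45 at week 7 and -2.31 at week 11, and that on NR1I3 was -1.27, -0.52, -1.34 and -1.05. The difference between weeks 7 and 3 did not pass for either (adjusted p = 0.169 and 0.213). The placebo biopsies of week 3 are those of which 8 of 12 held muscle or skin transcripts.

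Between week 11 and week 7, both at 100 μg, 0 of 15826 genes differed (0%) by edgeR, with 640 at an unadjusted p below 0.05 and a smallest adjusted p of 0.0919. DESeq2 called 2 genes, and edgeR with the animal as a replicate block called 3 (MCM8, HCN2 and PALM3, named after their values were seen). CXCL9 had a log2 effect of 2.07 at week 7 and 3.45 at week 11, and PDCD1 of 0.30 and 2.33, and neither difference passed (adjusted p = 1.00 and 0.887).

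The effect of wIFN-α at week 7 was compared between the 4 males and 5 females treated, against 6 placebo animals of each sex. By edgeR 0 of 14868 genes differed (0%), with 1449 at an unadjusted p below 0.05 and a smallest adjusted p of 0.321. DESeq2 called 25. CXCL9 rose by 4.18 ± 0.75 in males and was at -0.15 ± 0.66 in females (log2, SE), with an adjusted p of 0.321 for the difference by edgeR and 0.0266 by DESeq2. In males CXCL9 was at 191 to 693 CPM with wIFN-α, and in females at 43.7 to 148 CPM, so that the sexes did not overlap. The placebo animals were at 4.18 to 37.2 CPM in males and at 9.47 to 196 CPM in females, which overlapped. For GZMA the values were 2.90 ± 0.38 and 0.66 ± 0.35 (adjusted p = 0.321 and 0.0293). CXCL10 (6.26 and 6.07), MX1 (3.40 and 3.56) and RSAD2 (7.36 and 7.10) had similar values in both sexes.

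A difference in reads of WHV itself was not detected at this biopsy. They amounted to 13052 to 36598 CPM in wIFN-α animals (median 16019) and 9421 to 34809 in placebo animals (median 20408). The difference of the means of log2(CPM + 1) was -0.11 (exact permutation test over 293930 assignments, two-sided p = 0.635, SD 0.51 with n = 9 and 0.53 with n = 12). Relative to week -3 of the same animal, 6 of 9 wIFN-α animals and 9 of 12 placebo animals had fewer WHV reads, and the difference between the groups was 0.21 (exact permutation p = 0.884). The muscle-rich week -3 biopsies of F1018 and F1016 had only 34.2 and 86.4 CPM of WHV, and without these 2 animals the difference was -0.17 (exact permutation p = 0.443, n = 8 and 11). M1004, left out throughout, had 2064 CPM of WHV at week 7 without TMM scaling, where the 9 treated animals had 11896 to 36284 CPM. With M1004 the difference was -0.52 (exact permutation p = 0.172). It was also taken without TMM scaling, unlike the -0.11, so the step between them is not due to M1004 alone. Without TMM scaling M1004 had 965 CPM of ISG15 and 7500 CPM of MX1, within the range of the 9 treated animals (798 to 1054 and 6739 to 8149 CPM), and 4044 CPM of RSAD2 and 6033 CPM of CXCL10, above it (2061 to 3674 and 1635 to 5265 CPM).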

How the data were processed

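Liver RNA of 21 woodchucks was sequenced by the authors as poly(A) libraries. Reads were aligned with Bowtie2 to a woodchuck transcriptome assembly and counted per gene with SAMtools, and CASAVA, FastQC and DESeq are also named in the submitters' notes or methods. Gene symbols are those the files give, by similarity to human genes, and versions are not given in the sources used here. The deposited tables hold estimated counts per gene, of which 118 of 3368023 values were not whole, and RPKM values, which the authors scaled by length and depth and which were not used. The authors' response groups were not used.

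From these, counts were rounded, runs of 1 animal were summed, and genes passing edgeR's filterByExpr were fitted with TMM scaling and edgeR 4.0.16's quasi-likelihood test in R 4.3.3, with Benjamini-Hochberg adjustment over all genes tested. Genes were called at an adjusted p under 0.05 and, for the week 7 effect, a fold change above 1.5. WHV reads, which were kept out of the library size, were compared by a two-sided exact permutation test. DESeq2 1.42.0 and limma 3.58.1 (voom), other scalings and filters, the lane number of the run label and sex as covariates, and omission of each animal were alternatives. Omission of biopsies with over 2000 CPM of muscle genes or 1000 CPM of skin genes, omission of F1018 and F1016 from changes within animals, and the comparison at week -3, were added after seeing the data. The scripts were tested on simulated data.

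Genes were named if the study names them, if they were on a list, among the 10 highest or lowest called changes or the 5 largest or smallest called differences between weeks (mean of at least 1 CPM), among the 5 called genes with the largest SD of log2(CPM + 1) in wIFN-α animals, or among the 5 lowest adjusted p. The comparison, the lists and the rule were chosen with earlier results of these data known. Animals pair the biopsies by name: week 7 deviations correlated with those of another week of the same animal with a median of 0.38 over 15826 genes (above 0.1 in 49 of 60 pairs), against -0.0318 for other animals. Where the change from week -3 with this block changes the call of a gene named for its week 7 effect, its adjusted p or the count of its list is given. IFIT, OAS, GBP, HLA, APOL and SAA genes are close relatives, and reads of 1 may be counted for another, although the methods state that unique hits were preferred. Some named genes are not reported here.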

Additional observations from a re-analysis of the deposited data

Results flagged for a closer look

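Among 46 groups of 9 wIFN-α animals tested for a value standing apart, 6 held one by Dixon's criterion. Its chance rate of about 1 in 20 holds for normally distributed values in groups chosen beforehand. These were CPM without a log and, apart from the WHV reads, of genes picked from the same data, some for their wide spread. The count of 6 therefore cannot be weighed against chance. GRB10, an adaptor of insulin receptor signalling, was at 204.5 CPM in F1013, against 18.3 to 72.1 CPM in the other animals. RASGRP3 was at 84.9 CPM in M1012 and SLC1A4, an amino acid transporter, at 36.0 CPM in M1003. The other 3 were skin genes at low level in M1007, with DMKN at 0.105 CPM, KRT1 at 0.978 CPM and KRT77 at 0.384 CPM.

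Differences between the week 7 effect and that of another week, each past the adjusted p of 0.05, were largest in size for 5 skin genes. Against week 3 these were -14.83 for KRT77, -14.66 for KRT2, -14.36 for KRTDAP, -14.10 for KRT5 and -14.03 for DMKN on the log2 scale. They moved with the skin transcripts of the week 3 biopsy of M1012 and the week 7 biopsy of placebo animal M1009. KRT77 had a log2 effect of 5.34 at week 3 and of -9.49 at week 7. Without the biopsies rich in muscle or skin transcripts KRT77 and KRT5 did not pass, and KRT2, KRTDAP and DMKN were not tested. Larger effects than at week 3 were 3.08 for LOC100506027, 2.53 for LGALS13, 2.16 for ADAMTS17, 2.14 for GRB10 and 1.91 for ATF3. Against week 0 the effects were larger by 2.49 for LGALS13, 1.99 for ZBP1, 1.90 for IHH, 1.62 for SLC1A4 and 1.60 for RASGRP3, and smaller by -2.33 for LOC283104, -2.09 for LOC100506385, -1.15 for DNAJB7, -1.12 for TRIB3 and -1.12 for LOC100505636. Of these, LOC283104 passed without the biopsies rich in muscle or skin transcripts. The IHH difference came from week 0, where its log2 effect was -2.29, against -0.39 at week 7. That of LOC283104 came mostly from the placebo animals. Their mean was 1.28 CPM at week 0 and 5.76 CPM at week 7, against 0.604 and 0.527 CPM in wIFN-α animals.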

How the results depend on the processing

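The count of genes called at week 7 lay between 2939 (lane as a covariate, which shared 83.6% of the calls) and 3599 (no filter) under the other tools, scalings, filters, covariates, fits and omitted biopsies, and between 3074 and 3445 without single animals. It was 1471 above 2-fold and 2192 as the change from week -3 with the replicate block, of which 65.7% were higher, against 53.0%, and 3099 without F1018 and F1016 (54.6% higher). Of 278 called genes named or on a list, 184 kept their call under every alternative. By the deepest run of each animal, lane 6 held only wIFN-α animals and lanes 5 and 7 only placebo animals. The lane is the number in the run label. F1013 and F1015 share a barcode as well as this number, as do M1012 and F1022. The number therefore does not identify a single lane, and lane as a covariate may group runs of different lanes. The difference between weeks 7 and 3 gave 716 genes with the replicate block, 45 with only the 4 groups of the 2 weeks, 1 without biopsies with muscle or skin transcripts, 31 with both, and 25 (without M1012) to 222 without single animals. That between weeks 7 and 0 gave 589, 190 by DESeq2, 3 (LOC283104, PRMT6 and PXN), 188 with both, and 44 (without M1003) to 96. That between weeks 11 and 7 gave 3 with the block, 2 by DESeq2, 27 with the block and without those biopsies, and 0 to 1 (without F1018 and without M1012). The sex difference gave 25 by DESeq2 and 0 without single animals by edgeR, and the WHV difference lay between -0.24 and -0.05 without single animals. Without TMM scaling, the WHV difference was -0.52 with M1004 and 0.21 as the change from week -3 (-0.17 without F1018 and F1016). Skin genes turned sign. By DESeq2, as the change from week -3, without the 5 biopsies and without M1009, log2 values were 0.19, 0.30, 0.19 and 0.18 for FLG2, 0.30, 0.0519, 0.35 and 0.29 for KRT1, and 0.18, 0.19, 0.22 and 0.18 for KRT14. By DESeq2, without the 5 and without M1009 they were 0.0434, 0.105 and 0.0393 for KRT15 and 0.0120, 0.0813 and 0.00950 for SFN. For week 7 minus week 3, DESeq2 gave 5.31 for KRT77, 3.26 for KRT2, 23.89 for KRTDAP, 3.77 for KRT5 and 1.62 for DMKN, the fit without those biopsies 5.59 for KRT77 and 4.55 for KRT5, and the same fit with the block 4.89, 4.76, 7.44, 4.38 and 2.99. The skin transcripts of M1009 and M1012 were the values omitted, and other causes were not tested. Leaving out single animals gave down to -4.69 for FLG2, -8.72 for KRT1, -2.51 for KRT14, -3.87 for KRT15 and -3.90 for SFN, with the highest values those without M1009. Depth limited genes such as IFNG, at most 0.360 CPM.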

Other observations

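A gene of the apical epithelium was also higher with wIFN-α, and is named here after its values were seen. TMPRSS2, a serine protease of the cell surface that activates viral glycoproteins, was at 0.425 to 2.58 CPM in placebo animals (median 1.33) and at 18.5 to 236 CPM in wIFN-α animals (median 56.2), with a log2 fold change of 5.73 ± 0.45 (SE, adjusted p = 4.45e-10). The groups did not overlap.

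Among 6 tested genes of fetal liver and hepatoma 3 rose. MDK, a heparin-binding growth factor, rose from 0.931 CPM (0.395 to 1.57) to 2.47 CPM (1.88 to 4.21) without overlap, and PEG10, a gene derived from a retrotransposon, from 3.07 CPM (1.05 to 8.50) to 7.21 CPM (4.92 to 13.4), with 3 of 9 animals above every placebo animal. In the change from week -3 PEG10 passed only without F1018 and F1016 (adjusted p = 0.0511 with and 0.000831 without these animals). Apart from IDO1, which opens the kynurenine pathway and rose among the checkpoint genes, 9 genes of tryptophan metabolism were listed, of which only the tryptophanyl-tRNA synthetase WARS rose, from 26.1 CPM (21.2 to 36.7) to 69.1 CPM (49.9 to 89.1).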
